A study of Mus musculus with 18 samples.

Results

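The ligand-gated neurotransmitter receptor subunits were followed through the first day after in vitro axotomy of embryonic dorsal root ganglion (DRG) cultures. They were chosen by name, as every protein-coding gene whose GENCODE vM21 symbol is that of a GABA-A, ionotropic glutamate (AMPA, kainate, delta or NMDA), nicotinic, glycine or 5-HT3 receptor subunit. The rule matched 61 genes, and all 61 were among the 47643 genes counted. One of them, Grid2ip, carries a matching symbol but encodes delphilin, a scaffold protein that binds the delta receptor, so that 60 are subunits. RNA came from spot cultures of CD-1 mouse DRG taken at e13.5, an embryonic stage, all grown with the mitotic inhibitor FDU, which removes dividing cells. Control cultures were uninjured and collected at 7 days in vitro (DIV7). In the other cultures the axons were cut with a blade and RNA was collected 1, 3, 8, 16 or 24 h post injury (HPI). The labels place every collection on DIV7 and the study's text places the cut there. In the second case the injured groups were older in culture than control by the time since the cut, and time in culture and injury cannot be told apart. Each of the 6 groups held 3 libraries, 18 in all, and whether replicates came from separate litters or dissections is not given in the labels, so that p-values measure the spread between these libraries, which may be technical.

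Ligand-gated receptors are ion channels that open when a transmitter binds. GABA-A, nicotinic, glycine and 5-HT3 receptors are pentamers of one gene superfamily, and the glutamate receptors are tetramers of another. GABA-A and glycine receptors pass chloride, while the glutamate, nicotinic and 5-HT3 receptors pass cations. In sensory neurons such receptors sit on the soma and, for several classes, on the central terminals, where they adjust transmitter release onto spinal neurons. GABA depolarizes DRG neurons, whose internal chloride is high, and AMPA, kainate and NMDA receptors on their terminals are known as presynaptic autoreceptors for glutamate.

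The libraries held 9478891 to 23082327 counts on genes, at which 3 counts, taken as the detection limit, stand for 0.130 to 0.316 CPM, a gene's count scaled to library size. The 8 sensory neuron markers summed to 5352 to 6237 CPM in control, while the 4 endothelial markers summed to at most 1.42 CPM and the 4 myeloid markers to at most 6.82 CPM in any library. Satellite glia and Schwann cell markers summed to 57.5 to 137 CPM, fibroblast markers to 1.22 to 19.6 CPM and residual rRNA took 13.8% to 24.1% of the counts, most in 16 HPI replicate 1. Samples of the same replicate number deviated together, so replicate number was a term of every fit. Replicate 2 of every group stood apart in 8 spinal cord neuron markers, which summed to 3.29 to 5.23 CPM there and to 0 to 1.13 CPM in the other libraries. The same libraries held 7.63 to 9.51 CPM of 5 sympathetic neuron markers, against 3.57 to 5.53 CPM elsewhere.

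Which subunits do these neurons make before injury? Levels between genes were compared as RPKM, CPM per kilobase of exon. In control, 8 members exceeded 10 RPKM and 21 exceeded 1 RPKM, and the 5 highest held 52.0% of the summed level of all members. Among them the high-affinity kainate subunit Grik5 stood at 19.0 ± 2.77 RPKM (SD, n = 3). The glycine receptor beta subunit Glrb stood at 16.5 ± 0.765 RPKM, and Htr3a, the obligate subunit of 5-HT3 receptors, at 14.6 ± 8.30 RPKM. Chrnb2, a nicotinic beta subunit, followed at 13.3 ± 1.16 RPKM and Gabra2, an alpha subunit of the GABA-A receptor, at 11.3 ± 1.03 RPKM. The order of Grik5, Glrb and Htr3a was within their spread over libraries.

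**Figure D1:**
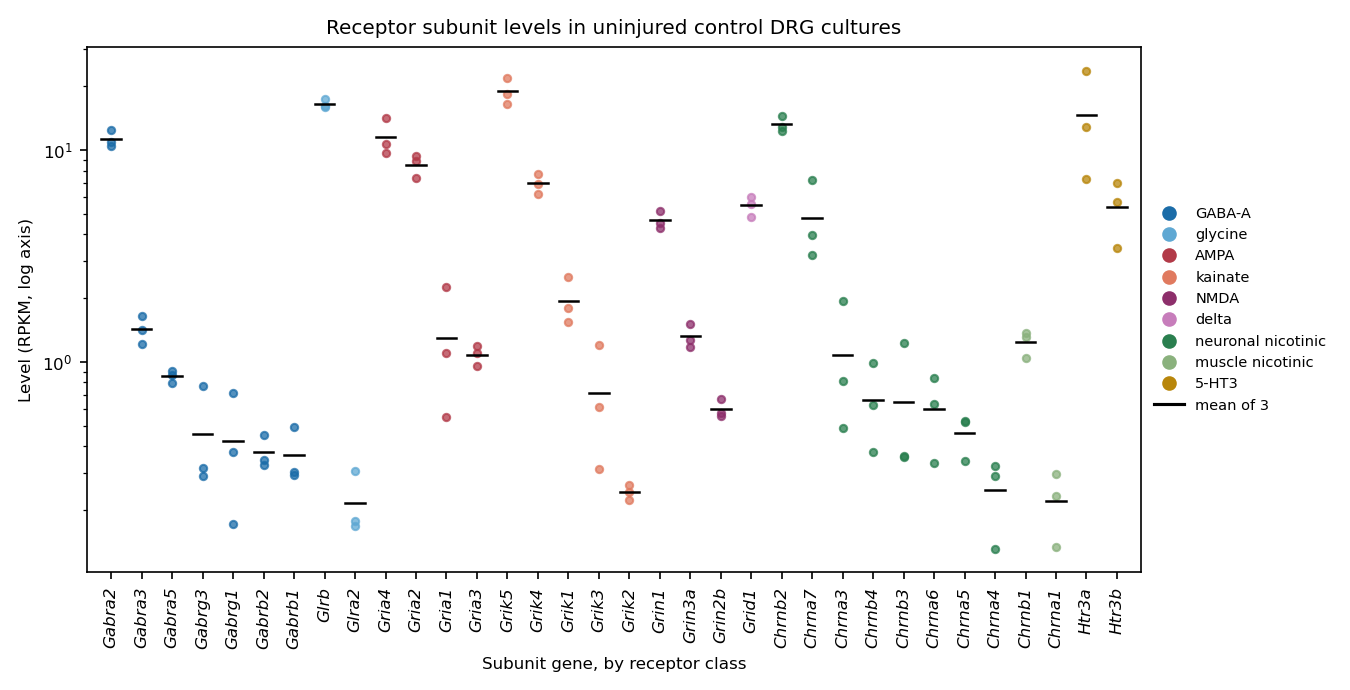
Level in RPKM (log axis) of 34 tested receptor subunit genes in the 3 control libraries, with genes grouped by receptor class; points are libraries and black bars are means of 3. Each class but the muscle nicotinic one has at least 1 gene above 4 RPKM, and Grik5 is the highest of those plotted.

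By class, GABA-A subunits summed to 63.0 ± 4.84 RPKM (SD, n = 3), 33.7% ± 0.863 of all subunits. Kainate subunits followed with 28.8 ± 2.89 RPKM, and AMPA, neuronal nicotinic, 5-HT3 and glycine subunits each lay between 16.9 and 22.4 RPKM. NMDA subunits reached 6.89 ± 0.209 RPKM, delta subunits 5.61 ± 0.506 RPKM and muscle nicotinic subunits 1.78 ± 0.247 RPKM. These sums depend on the gene length taken, and the longest transcript in place of all exons gave 13.7 RPKM for NMDA and 80.7 RPKM for GABA-A subunits. Within several classes a single gene carried most of the level. Grid1 gave 97.7% ± 2.06 of the delta sum, Glrb 97.5% ± 0.894 of the glycine sum, and Grin1, the subunit that every NMDA receptor needs, 67.6% ± 4.83 of the NMDA sum. Gria4 at 11.5 ± 2.40 RPKM and Gria2, the subunit that makes AMPA receptors impermeable to calcium, at 8.51 ± 1.02 RPKM together led the AMPA class.

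Several subunits that pair with those above were scarce. Glra1 to Glra4, the glycine-binding alpha subunits, were all low: Glra2 reached 0.217 ± 0.0760 RPKM, Glra1 was under the filter on low counts, and Glra3 and Glra4 had at most 3 counts in every library. Of the NMDA glutamate-binding subunits, Grin2b, a gene with long exons, was well detected at 14.8 CPM or 0.597 ± 0.0598 RPKM, Grin2a and Grin2d were under the filter and Grin2c had at most 3 counts in every library. The filter kept genes over 1 CPM in at least 3 libraries. In all, 22 members did not pass it and were not tested, with at most 28 counts in any library. Of these, 10 had at most 3 counts in every library: Chrna10, Chrna2, Chrna9, Chrnd, Gabra6, Gabre, Gabrr1, Glra3, Glra4 and Grin2c. The skeletal muscle markers summed to 4.74 to 8.65 CPM with 4 of 8 at no more than 3 counts anywhere, beside which Chrnb1, the muscle nicotinic beta subunit, stood at 1.24 ± 0.174 RPKM and Chrne at 0.295 ± 0.0805 RPKM.

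Members that differed from control after axotomy were nearly all called at 16 or 24 HPI, and each of them was lower. None of the 39 tested members passed at 1 HPI, where 0.276% of all 13771 tested genes did (edgeR quasi-likelihood test, adjusted p under 0.05), and none at 3 HPI, where 0.189% did. At an unadjusted p under 0.05 there were 6 and 4 members, beside 12.8% and 14.5% of all genes, and DESeq2 also called 0 members at both times, beside 0.98% and 1.11% of all genes. At 8 HPI 1 member passed, Grik3, which fell, beside 7.68% of all genes. At 16 HPI 19 of 39 members passed, beside 22.2% of all genes, and all 19 were lower, beside 11.5% of all genes lower. At 24 HPI 13 passed, beside 15% of all genes, and all 13 were lower, beside 9.03% of all genes lower. Over the time course as a whole 21 passed, beside 30% of all genes.

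The falls were moderate in size. Whether or not it passed, the fitted change was below 0 for 34 of 39 members at 16 HPI, beside 50.5% of all genes, and for 29 at 24 HPI, beside 49.6%. The median log2 fold change of the tested members was -0.09, -0.02, -0.06, -0.26 and -0.23 at 1, 3, 8, 16 and 24 HPI, while that of all genes lay within 0.01 of 0 at each time. Chrna6 alone fell just over 2-fold at 16 HPI, where 1.49% of all genes changed by over 2-fold and 0.312% fell by that much, and no member did at 1, 3, 8 or 24 HPI, where 0.029%, 0.029%, 0.537% and 0.821% of all genes did. The count of members over 2-fold at 16 HPI was 0 on removal of replicate 1 or 2 of 3 HPI or replicate 1 of 16 HPI, it was 2 on removal of replicate 1 or 3 of control or replicate 2 of 16 HPI, and it was also 0 with the other filters on low counts, with upper-quartile factors and without the replicate block. Each member that passed at 16 or 24 HPI was lower than control in all 3 replicate sets. The test that picked these members pairs by replicate, so this adds no separate support. The calls need the pairing by replicate: without the replicate block 1 member, Gria3, passed at 16 HPI, beside 5.13% of all genes, and 0 passed at 24 HPI, beside 1.11%. The 24 HPI count was 8 without control replicate 1, beside 11.3% of all genes, 8 without control replicate 2, beside 8.98%, and 7 without 24 HPI replicate 2, beside 11.1%. Without 3 HPI replicate 1 the 3 HPI count was 1, beside 1.07% of all genes.

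**Figure D2:**
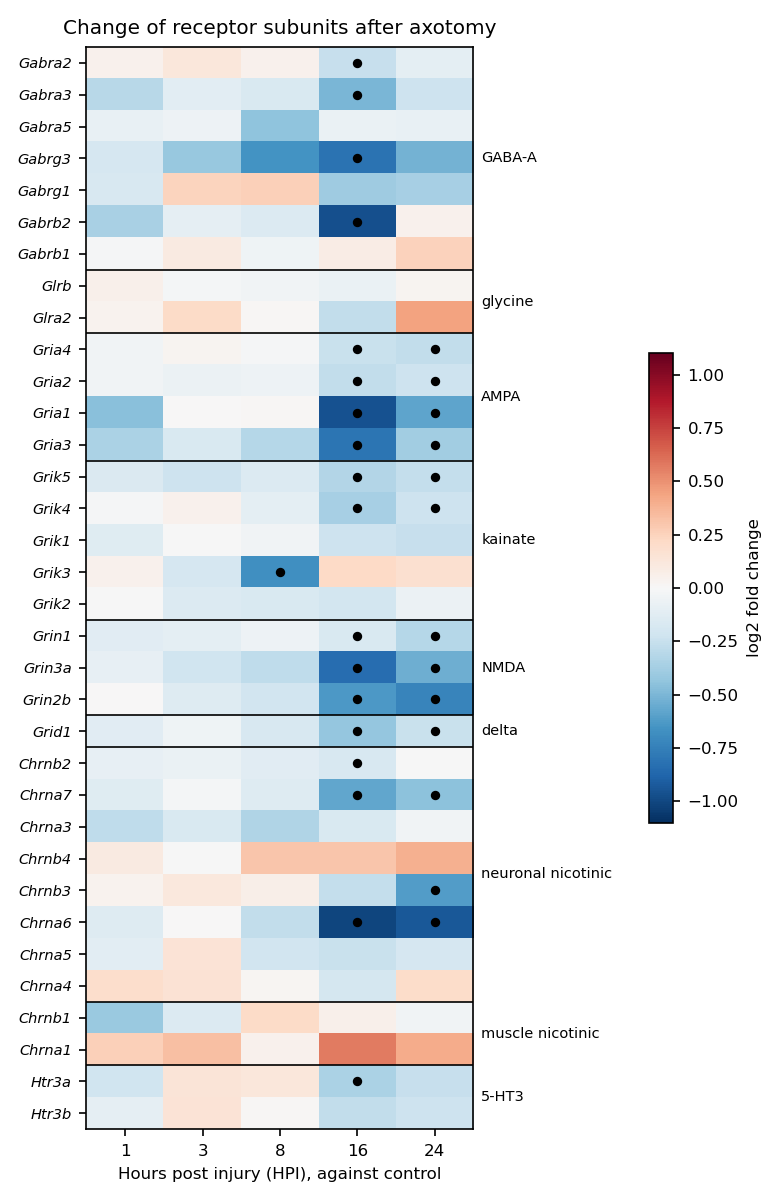
Log2 fold change against control of 34 tested subunit genes (rows, by receptor class) at 1, 3, 8, 16 and 24 HPI (columns), from the edgeR fit; blue is lower, red is higher, and a black dot marks an adjusted p under 0.05. Dots lie almost only in the 16 and 24 HPI columns and all on blue cells, with every AMPA and NMDA row marked in both columns and no GABA-A row marked at 24 HPI.

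The summed level of the sensory neuron markers was also lower at these times. It was 4294 to 5068 CPM at 16 HPI and 4533 to 5272 CPM at 24 HPI, below the control range of 5352 to 6237 CPM. Of the 8 markers, 3 fell at 16 HPI, beside 11.5% of all genes. Among them were the sodium channel gene Scn10a with a log2 fold change of -0.49 (adjusted p = 6.88e-06) and the neuronal tubulin gene Tubb3 with -0.40 (adjusted p = 1.09e-05). Tubb3 held much of the sum, with a mean of 2955 CPM in control and 2237 CPM at 16 HPI, while Avil, an actin-binding protein gene of sensory neurons, had 741 and 701 CPM and Pou4f1 281 and 279 CPM. At 24 HPI 3 markers fell, beside 9.03% of all genes, and 2, Isl1 and Pou4f1, rose, beside 825 of all 13771 genes. Of other lists, 1 fibroblast marker, Dcn, rose by 2.07 at 16 HPI and 2.22 at 24 HPI, and 1 myeloid marker, Cd68, by 0.97 and 0.93. The glial marker S100b fell by 0.33 and 0.26, while 3 of 6 tested genes that collect rRNA reads rose over 2-fold at 16 HPI. The part of these cells and of rRNA in the falls was not tested. With the log2 of the sensory neuron marker sum as a further term, an alternative chosen after seeing the data, 0 members passed at 16 HPI and 0 at 24 HPI. The share of all genes that passed was 0.00726% at 16 HPI and 0% at 24 HPI. At both times the marker sum lay wholly below its control range, so the term overlaps with time point and this fit cannot separate the 2. The summed level of the 60 subunits was 187 ± 17.5 RPKM in control (SD, n = 3), 157 ± 12.3 RPKM at 16 HPI and 167 ± 18.1 RPKM at 24 HPI. In bulk RNA, fewer neurons and less subunit RNA per neuron cannot be told apart.

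**Figure D3:**
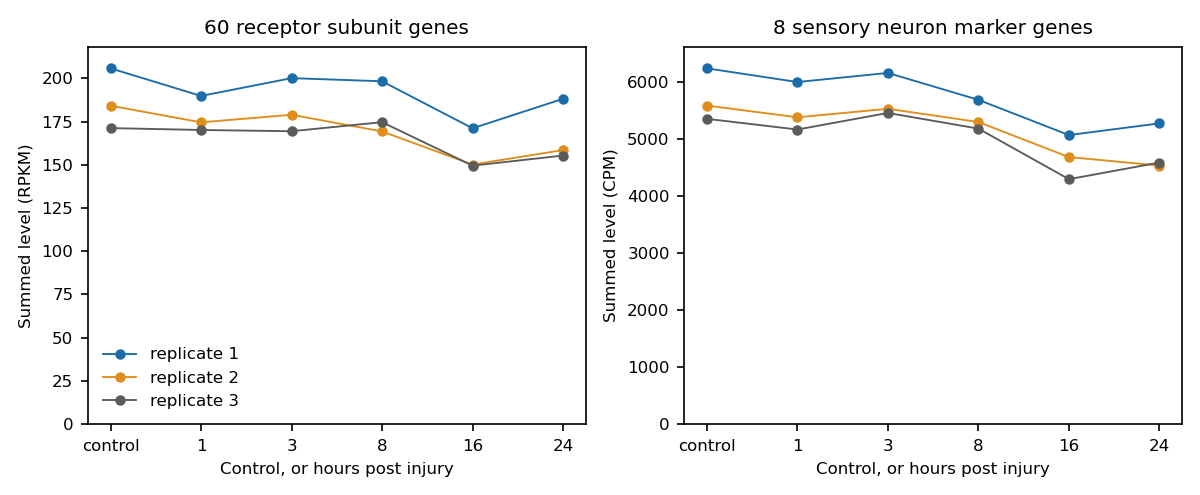
Summed level of the 60 receptor subunit genes in RPKM (left) and of 8 sensory neuron marker genes in CPM (right) in each of the 18 libraries; lines join libraries of one replicate number across control and 1 to 24 HPI. Both sums are lowest at 16 or 24 HPI in each replicate set, and replicate 1 is highest in both at every time.

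All 4 AMPA receptor subunits, the channels of fast glutamate signalling, fell at 16 HPI and at 24 HPI, beside 11.5% and 9.03% of all genes. Gria1 gave 13.6, 6.64 and 3.32 CPM in control replicates 1, 2 and 3, 7.95, 5.58 and 3.04 at 1 HPI, 10.7, 7.28 and 4.81 at 3 HPI, 9.01, 6.78 and 6.26 at 8 HPI, 5.68, 3.85 and 2.21 at 16 HPI and 8.14, 4.53 and 2.83 at 24 HPI. Its replicate sets started from very different control levels, and the 16 HPI value was the lowest of each set. The log2 fold change was -0.96 ± 0.19 (SE, adjusted p = 0.000847) at 16 HPI and -0.58 ± 0.18 (SE, adjusted p = 0.029) at 24 HPI. Gria3 gave 9.45, 10.8 and 11.7 CPM in control replicates 1, 2 and 3, 8.32, 7.18 and 9.73 at 1 HPI, 9.65, 8.84 and 9.84 at 3 HPI, 8.77, 8.69 and 8.33 at 8 HPI, 6.04, 6.51 and 5.73 at 16 HPI and 7.59, 7.62 and 9.19 at 24 HPI. No 16 HPI or 24 HPI library reached the lowest control library, and the fold change was -0.80 ± 0.11 (SE, adjusted p = 3.2e-05) at 16 HPI and -0.38 ± 0.11 (SE, adjusted p = 0.0175) at 24 HPI.

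The fold changes of the abundant AMPA subunits were smaller. Gria2 gave 145, 114 and 137 CPM in the control replicates, 117, 96.3 and 116 at 16 HPI and 119, 95.1 and 124 at 24 HPI. Its log2 fold changes were -0.27 ± 0.047 (SE, adjusted p = 0.000254) and -0.23 ± 0.046 (SE, adjusted p = 0.00187). Gria4 gave -0.25 ± 0.071 (SE, adjusted p = 0.0158) at 16 HPI and -0.27 ± 0.071 (SE, adjusted p = 0.013) at 24 HPI. Each replicate set was lower at both times for both genes, although control and injured ranges overlapped across sets. Gria1 made up 5.51% ± 2.84 of the AMPA sum in control and 3.52% ± 1.17 at 16 HPI, so that Gria2 and Gria4 together remained most of the class.

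The Gria2 calls, and those of Gria1 and Gria3 at 16 HPI, held when each of the 18 libraries was left out in turn. Gria4 missed the threshold at 16 HPI on removal of control replicates 1 or 2 or of 16 HPI replicate 3 (adjusted p = 0.0507 to 0.0776). At 24 HPI Gria4 missed it on removal of control replicate 2 or of 24 HPI replicates 2 or 3 (adjusted p = 0.0737 to 0.0818). Gria1 missed it at 24 HPI on removal of control replicates 1 or 2 or of 24 HPI replicates 1, 2 or 3 (adjusted p = 0.0503 to 0.419), with a log2 fold change between -0.68 and -0.26. Gria3 missed it at 24 HPI on removal of control replicates 2 or 3 or of 24 HPI replicates 1 or 2 (adjusted p = 0.0656 to 0.089).

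**Figure D4:**
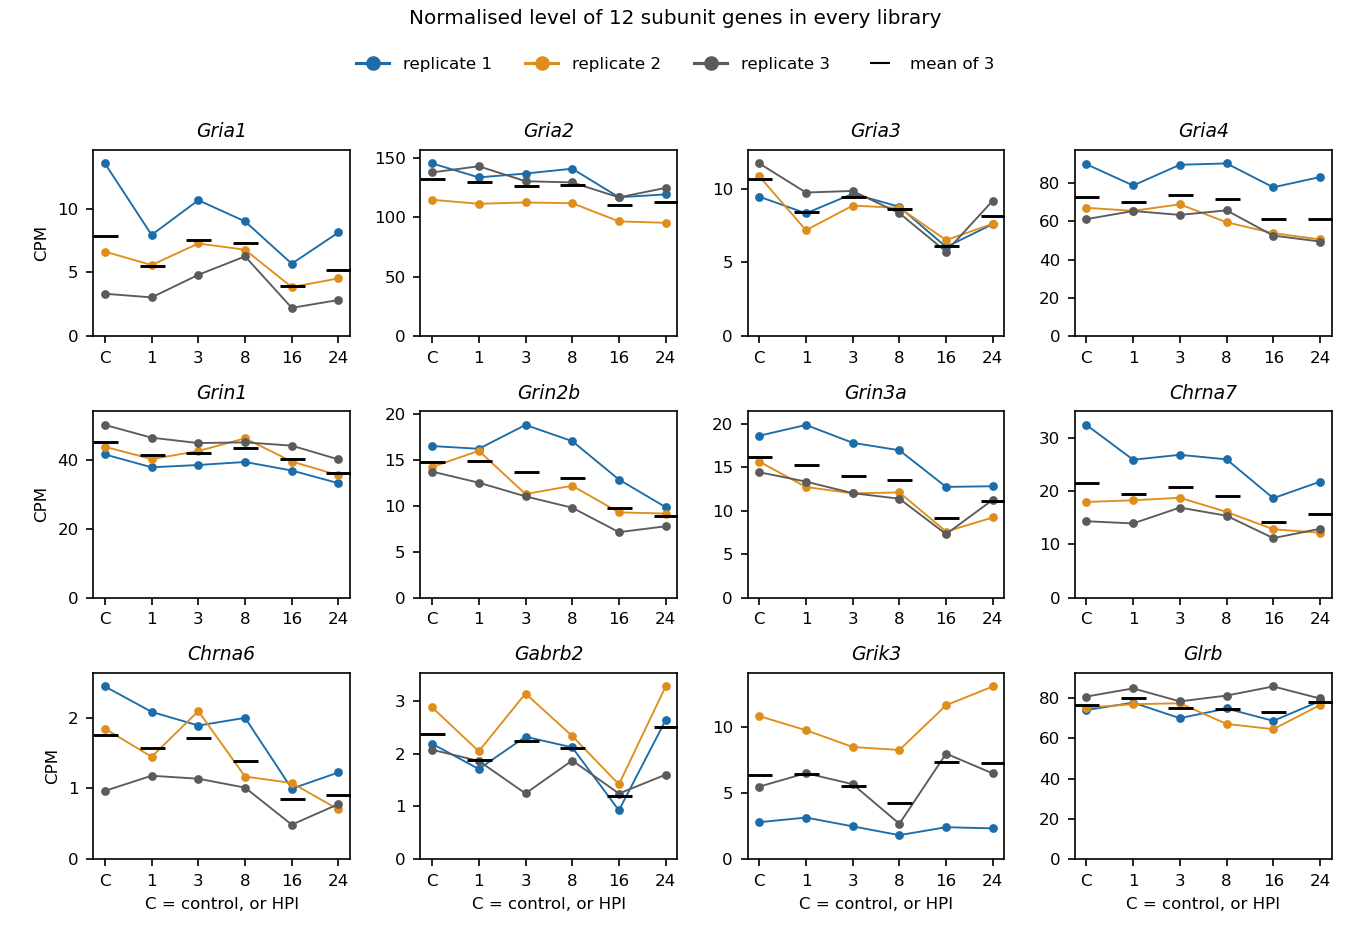
Normalised level in CPM (axes from 0) of 12 subunit genes in each library, in control (C) and at 1, 3, 8, 16 and 24 HPI; coloured lines join libraries of one replicate number and black bars are means of 3. Gria3, Grin2b and Grin3a at 16 HPI lie wholly below control, Gabrb2 is lowest at 16 HPI and back among control values at 24 HPI, and Glrb overlaps control at every time.

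All 3 tested NMDA receptor subunits fell at 16 and 24 HPI as well, beside 11.5% and 9.03% of all genes. Grin3a, a glycine-binding subunit that lowers calcium flow, gave 18.6, 15.6 and 14.4 CPM in control replicates 1, 2 and 3, 19.8, 12.7 and 13.3 at 1 HPI, 17.8, 12 and 12 at 3 HPI, 16.9, 12.1 and 11.4 at 8 HPI, 12.7, 7.59 and 7.29 at 16 HPI and 12.8, 9.21 and 11.2 at 24 HPI. Every library at 16 and 24 HPI was below every control library. The log2 fold change was -0.84 ± 0.10 (SE, adjusted p = 6.43e-06) at 16 HPI and -0.54 ± 0.097 (SE, adjusted p = 0.000791) at 24 HPI. Grin2b, a glutamate-binding subunit prominent in embryonic neurons, gave 16.5, 14.2 and 13.7 CPM in control replicates 1, 2 and 3, 16.2, 16.0 and 12.5 at 1 HPI, 18.8, 11.3 and 11.0 at 3 HPI, 17.1, 12.2 and 9.79 at 8 HPI, 12.9, 9.28 and 7.13 at 16 HPI and 9.86, 9.16 and 7.77 at 24 HPI. Here too the 16 and 24 HPI libraries all lay below control, with -0.63 ± 0.12 (SE, adjusted p = 0.000784) and -0.73 ± 0.12 (SE, adjusted p = 0.000388).

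Grin1, shared by all NMDA receptors, had the smallest fold change of the class at both times. It gave 41.6, 43.9 and 50.2 CPM in control, 37.0, 39.6 and 44.2 at 16 HPI and 33.2, 35.6 and 40.2 at 24 HPI. The log2 fold change was -0.17 ± 0.055 (SE, adjusted p = 0.0298) at 16 HPI and -0.32 ± 0.055 (SE, adjusted p = 0.000515) at 24 HPI, when all 3 libraries were below control. The 16 HPI call was lost on removal of control replicates 1 or 3 or of 16 HPI replicates 1, 2 or 3 (adjusted p = 0.0681 to 0.117). Of the exon bases of Grin1, 13.47% lie under the antisense gene Grin1os, and whether counting used strand is not given in the sources used here. The calls of Grin2b and Grin3a at both times, and of Grin1 at 24 HPI, held with any library left out.

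Of 5 kainate and 2 delta subunits tested, Grik4, Grik5 and Grid1, the most abundant of each class, fell at 16 and 24 HPI. Of all genes, 11.5% and 9.03% were lower at these times. Grik5 and Grik4, which bind glutamate tightly and need a Grik1, Grik2 or Grik3 partner to form channels, had similar values at both times. Grik5 changed by -0.32 ± 0.065 (SE, adjusted p = 0.00119) at 16 HPI and -0.26 ± 0.065 (SE, adjusted p = 0.00844) at 24 HPI. Grik4 changed by -0.37 ± 0.063 (SE, adjusted p = 0.000198) and -0.23 ± 0.061 (SE, adjusted p = 0.0153). Both were lower in 3 of 3 replicate sets at each time. The delta subunit Grid1, which binds cerebellins at synapses, gave 28.9, 35.9 and 33.3 CPM in control, 20.5, 28.3 and 24.5 at 16 HPI and 23, 32 and 28.1 at 24 HPI. It changed by -0.43 ± 0.067 (SE, adjusted p = 9.38e-05) at 16 HPI, when no library reached the control range, and by -0.24 ± 0.065 (SE, adjusted p = 0.0139) at 24 HPI.

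Of these calls, those of Grik4, Grik5 and Grid1 at 16 HPI held with any library left out. At 24 HPI Grik5 missed the threshold on removal of control replicate 3 (adjusted p = 0.0597). Grik4 missed it at 24 HPI on removal of control replicates 1 or 2 or of 24 HPI replicates 1 or 2 (adjusted p = 0.0584 to 0.0859). Grid1 missed it at 24 HPI on removal of control replicate 3 or of 24 HPI replicate 1 (adjusted p = 0.0661 to 0.0779).

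Grik3, a low-affinity kainate subunit, followed another course. It gave 2.80, 10.8 and 5.49 CPM in control replicates 1, 2 and 3, 3.15, 9.77 and 6.51 at 1 HPI, 2.48, 8.50 and 5.68 at 3 HPI, 1.81, 8.27 and 2.68 at 8 HPI, 2.42, 11.7 and 7.99 at 16 HPI and 2.33, 13.1 and 6.49 at 24 HPI. Replicate 2 was highest at every time and the groups overlapped throughout. Within each set the 8 HPI value was the lowest of the time course. The log2 fold change was -0.68 ± 0.19 (SE, adjusted p = 0.0327) at 8 HPI, beside 3.9% of all genes lower, and 0.90 ± 0.19 (SE, adjusted p = 0.00249) from 8 to 16 HPI. The 8 HPI call was lost on removal of control replicates 1, 2 or 3 or of 8 HPI replicates 1 or 3 (adjusted p = 0.06 to 0.334), with a log2 fold change between -0.75 and -0.37, while the rise from 8 to 16 HPI held with any library left out. Against control the 95% interval at 16 HPI was -0.12 to 0.57. Grik1, a low-affinity subunit known in sensory neurons, was 1.95 ± 0.497 RPKM in control with an interval of -0.52 to 0.06 at 16 HPI.

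Several GABA-A subunits fell at 16 HPI. Of 10 tested, 5 were lower then, beside 11.5% of all genes, and 0 passed in either direction at 24 HPI, beside 15%. The class medians were -0.33 at 16 HPI and -0.10 at 24 HPI on the log2 scale. At an unadjusted p under 0.05 (edgeR) 1 of these 10 was lower at 24 HPI, where 28.6% of all genes had such a p. The beta subunit Gabrb2 gave 2.19, 2.88 and 2.07 CPM in control replicates 1, 2 and 3, 1.71, 2.04 and 1.86 at 1 HPI, 2.32, 3.14 and 1.24 at 3 HPI, 2.12, 2.33 and 1.87 at 8 HPI, 0.924, 1.42 and 1.24 at 16 HPI and 2.63, 3.27 and 1.6 at 24 HPI. All 3 libraries of 16 HPI lay below control, and those of 24 HPI overlapped it. The fold change was -0.97 ± 0.24 (SE, adjusted p = 0.00541) at 16 HPI and 0.05 ± 0.20 (SE, adjusted p = 0.909) at 24 HPI. Gabra3, an alpha subunit, gave 6.45, 5.53 and 4.77 CPM in control replicates 1, 2 and 3, 5.33, 4.29 and 3.78 at 1 HPI, 6.79, 4.23 and 4.43 at 3 HPI, 5.99, 4.56 and 4.34 at 8 HPI, 3.91, 3.74 and 3.94 at 16 HPI and 5.08, 3.88 and 5.12 at 24 HPI. It was below control in all 3 libraries of 16 HPI, by -0.50 ± 0.15 (SE, adjusted p = 0.0161), and its 24 HPI interval was -0.51 to 0.06.

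Gabrg3, a rare gamma subunit, gave 3.46, 3.76 and 9.20 CPM in control replicates 1, 2 and 3, 3.68, 3.94 and 6.88 at 1 HPI, 5.12, 2.96 and 4.05 at 3 HPI, 4.35, 3.39 and 2.83 at 8 HPI, 2.35, 3.17 and 3.67 at 16 HPI and 3.43, 2.76 and 5.21 at 24 HPI. Control replicate 3 stood far above the other controls, and the fold change at 16 HPI was -0.81 ± 0.27 (SE, adjusted p = 0.0382). Without control replicate 3 it was -0.33.

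Gabra2, more abundant than these, had a smaller fold change. It gave 94.8, 79.6 and 83.6 CPM in control, 71.8, 73.9 and 70.6 at 16 HPI and 84.0, 73.8 and 81.7 at 24 HPI. It changed by -0.25 ± 0.057 (SE, adjusted p = 0.00269) at 16 HPI, when all 3 libraries were below control, and its interval at 24 HPI was -0.22 to 0.01. The calls of Gabra2 and Gabrb2 held with any library left out. Gabra3 missed the threshold on removal of control replicate 2 or of 16 HPI replicate 1 (adjusted p = 0.0717 to 0.122). Gabrg3 missed it on removal of control replicate 3 or of 16 HPI replicates 1 or 3 (adjusted p = 0.128 to 0.504).

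The glycine receptor beta subunit Glrb, which anchors glycine receptors to gephyrin, gave 74.1, 75.3 and 80.8 CPM in control, 68.7, 64.6 and 85.8 at 16 HPI and 78.6, 76.5 and 79.8 at 24 HPI. These ranges overlapped. Its log2 fold change lay in the interval -0.20 to 0.06 at 16 HPI and -0.10 to 0.16 at 24 HPI, so that a fall of the size seen in Gria1 or Grin3a is outside both.

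Of 8 tested neuronal nicotinic subunits, which form acetylcholine receptors, 3 were lower at 16 HPI, beside 11.5% of all genes. At 24 HPI 3 were lower, beside 9.03%. Chrna7, which assembles into receptors of a single subunit, gave 32.5, 18 and 14.4 CPM in control replicates 1, 2 and 3, 25.9, 18.3 and 13.9 at 1 HPI, 26.9, 18.8 and 16.9 at 3 HPI, 26.0, 16.1 and 15.4 at 8 HPI, 18.7, 12.8 and 11.2 at 16 HPI and 21.8, 12.2 and 12.9 at 24 HPI. Replicate 1 was highest at every time, and in each set both late values were below its control. The log2 fold change was -0.57 ± 0.097 (SE, adjusted p = 0.000185) at 16 HPI and -0.45 ± 0.093 (SE, adjusted p = 0.00253) at 24 HPI. Chrna6, an alpha subunit often paired with Chrnb3, gave 2.44, 1.84 and 0.964 CPM in control replicates 1, 2 and 3, 2.08, 1.45 and 1.18 at 1 HPI, 1.89, 2.09 and 1.14 at 3 HPI, 2.00, 1.17 and 1.01 at 8 HPI, 0.995, 1.1 and 0.486 at 16 HPI and 1.22, 0.701 and 0.777 at 24 HPI. Its counts were low, with 9 to 19 at 16 HPI and 20 to 48 in control, and the change was -1.01 ± 0.26 (SE, adjusted p = 0.00722) at 16 HPI and -0.93 ± 0.25 (SE, adjusted p = 0.0132) at 24 HPI.

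Chrnb3 gave 2.29, 7.81 and 2.26 CPM in control replicates 1, 2 and 3, 2.51, 7.53 and 2.42 at 1 HPI, 1.83, 7.97 and 3.41 at 3 HPI, 1.94, 7.63 and 3.08 at 8 HPI, 2.06, 5.49 and 2.43 at 16 HPI and 1.71, 5.05 and 1.28 at 24 HPI. Replicate 2, the set with more spinal cord and sympathetic neuron marker RNA, was highest at every time, and the part of those cells in these levels was not tested. The change was -0.62 ± 0.18 (SE, adjusted p = 0.0262) at 24 HPI, and at 16 HPI the interval was -0.64 to 0.11. Chrna3 and Chrnb4, the subunits typical of autonomic ganglia, were also highest in replicate 2 of every group. Neither passed, and their 16 HPI intervals were -0.53 to 0.19 and -0.09 to 0.70. Chrnb2, the most abundant nicotinic subunit at 13.3 ± 1.16 RPKM, changed by -0.18 ± 0.047 (SE, adjusted p = 0.00833) at 16 HPI, with a 24 HPI interval of -0.10 to 0.09. Of its exon bases, 16.3% lie under the Adar gene on the opposite strand.

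The Chrna7 call at 16 HPI held with any library left out, and at 24 HPI it was lost on removal of control replicate 1 (adjusted p = 0.0523). Chrna6 missed the threshold at 16 HPI on removal of control replicate 1 (adjusted p = 0.0591). At 24 HPI Chrna6 missed it on removal of control replicate 1 or of 24 HPI replicate 2 (adjusted p = 0.0913 to 0.0915). Chrnb3 missed it at 24 HPI on removal of control replicates 1 or 2 or of 24 HPI replicates 2 or 3 (adjusted p = 0.0595 to 0.185). Chrnb2 missed it at 16 HPI on removal of control replicate 1 or of 16 HPI replicates 1 or 3 (adjusted p = 0.0623 to 0.0729).

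The muscle nicotinic subunits Chrnb1 and Chrna1 did not pass at any time. Their 16 HPI intervals were -0.29 to 0.40 and 0.02 to 1.12. Of the 5-HT3 subunits, Htr3a gave 49.2, 26.8 and 15.2 CPM in control, 37.4, 18.3 and 14.6 at 16 HPI and 42.4, 17.7 and 16.2 at 24 HPI. Replicate 1 was highest in every group and the groups overlapped. The change was -0.35 ± 0.12 (SE, adjusted p = 0.0392) at 16 HPI, lower in 3 of 3 sets, and the call was lost on removal of control replicates 1 or 2, of 1 HPI replicate 2 or of 16 HPI replicates 1, 2 or 3 (adjusted p = 0.0513 to 0.205). Htr3b, which forms channels only with Htr3a, passed over the time course alone (adjusted p = 0.0241) and changed by -0.27 ± 0.11 (SE, adjusted p = 0.0791) at 16 HPI.

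To place the falls in time, 16 HPI was compared with 8 HPI directly. Between 8 and 16 HPI 14 of 39 members passed, beside 15.2% of all genes. Of these, 13 were lower at 16 HPI, beside 7.88% of all genes, and 1, Grik3, was higher, beside 7.3%. Gria1 differed most, by -0.98 ± 0.20 (SE, adjusted p = 0.00193), and its 16 HPI libraries all lay below those of 8 HPI. Gabrb2 differed by -0.82 ± 0.25 (SE, adjusted p = 0.0305) and Grin3a by -0.56 ± 0.11 (SE, adjusted p = 0.00131). Htr3a differed by -0.48 ± 0.12 (SE, adjusted p = 0.0101) and Gabra2 by -0.30 ± 0.057 (SE, adjusted p = 0.00131). The calls of Gria1, Grin3a and Gabra2 held with any library left out. Gabrb2 was lost on removal of 8 HPI replicates 1 or 3 or of 16 HPI replicates 1 or 2 (adjusted p = 0.089 to 0.124) and Htr3a on removal of 8 HPI replicate 3 (adjusted p = 0.108), when its difference was -0.31. Without the replicate block 0 members passed, beside 1.5% of all genes, and without 8 HPI replicate 1 there were 9, beside 10.1%.

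From 16 to 24 HPI 3 members passed, beside 9.82% of all genes, and all 3 were higher, beside 3.59% of all genes higher. Gabrb2 rose by 1.02 ± 0.23 (SE, adjusted p = 0.00722), the only member past 2-fold, where 0.508% of all genes were and 0.0944% were higher. Gria3 rose by 0.42 ± 0.12 (SE, adjusted p = 0.0248), and Chrnb2 by 0.17 ± 0.047 (SE, adjusted p = 0.0206). For all 3 genes every 24 HPI library was above every 16 HPI library. They were picked by this same comparison, and the share of all genes without such overlap was not counted. None of these calls held with every library left out in turn. Without 16 HPI replicate 1 none of the 39 passed, beside 4.51% of all genes, and without the replicate block none did, beside 0.806%. Without 16 HPI replicate 3 only 1 did, beside 8.7%, and without 24 HPI replicate 3 only 1, beside 4.87%. Among these 18 fits Gabrb2 was lost in 1, without 16 HPI replicate 1 (adjusted p = 0.0521).

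Many of these genes lie beside each other in the genome (GRCm38), and neighbours were not always called together, although differences between neighbours were not tested. On chromosome 3, Gria2 and Glrb share the stretch 80681450 to 80913660, and Gria2 fell while Glrb did not pass. On chromosome 5, between 70751047 and 72149037, Gabra2 fell at 16 HPI while Gabrg1 and Gabrb1 did not pass and Gabra4 was not tested. On chromosome 8, between 27368711 and 27413944, Chrna6 fell at 16 and 24 HPI and Chrnb3 at 24 HPI. Gabrb1 and Gabrg1 were scarce, at 0.364 ± 0.113 and 0.421 ± 0.276 RPKM in control.

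Promoter sequence is shown for 3 subunits of different classes that fell at both late times and for Glrb, the neighbour of Gria2 that did not pass. The sequences are from RefSeq on GRCm38, run 5′ to 3′ on the minus strand and end just before the annotated start; capitals mark the reverse complement of the right-hand part of the RE1 motif, which the repressor Rest binds. The regions are chr3:80802836-80803085 for Gria2, chr2:25319188-25319437 for Grin1, chr7:63212570-63212776 for Chrna7 and chr3:80913661-80913910 for Glrb.
Gria2: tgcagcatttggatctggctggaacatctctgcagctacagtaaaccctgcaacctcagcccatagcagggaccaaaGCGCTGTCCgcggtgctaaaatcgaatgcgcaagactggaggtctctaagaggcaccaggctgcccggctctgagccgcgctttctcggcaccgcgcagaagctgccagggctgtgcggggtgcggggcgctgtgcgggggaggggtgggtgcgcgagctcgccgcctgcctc
Grin1: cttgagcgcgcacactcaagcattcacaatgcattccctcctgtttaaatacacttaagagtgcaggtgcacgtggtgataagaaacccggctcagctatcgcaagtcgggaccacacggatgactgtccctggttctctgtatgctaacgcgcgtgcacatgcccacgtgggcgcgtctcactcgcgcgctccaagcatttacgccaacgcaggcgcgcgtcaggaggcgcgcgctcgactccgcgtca
Chrna7: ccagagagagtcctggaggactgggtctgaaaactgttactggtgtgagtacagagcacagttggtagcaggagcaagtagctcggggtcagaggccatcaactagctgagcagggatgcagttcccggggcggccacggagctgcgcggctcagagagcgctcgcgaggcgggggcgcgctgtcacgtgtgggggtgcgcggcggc
Glrb: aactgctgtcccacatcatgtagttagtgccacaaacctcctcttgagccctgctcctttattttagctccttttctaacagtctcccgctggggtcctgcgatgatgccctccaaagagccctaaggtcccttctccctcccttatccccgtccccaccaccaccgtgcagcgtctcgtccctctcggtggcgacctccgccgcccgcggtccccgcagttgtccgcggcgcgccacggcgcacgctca

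The share of G and C was 64.8% for Gria2, 58.8% for Grin1, 65.2% for Chrna7 and 62.4% for Glrb, beside a median of 58.7% over member promoters and 52.7% over all promoters. RefSeq promoters of 300 bases, 250 before and 50 after the start, were at hand for 43 of 61 members, 11 of them lower at 16 HPI, and 4 motifs were searched on both strands. The right-hand part of RE1, GGACAGCGC, was found in Gria2 alone of the 43, beginning 173 bases before the end of the stretch shown, and in 0.477% of all genes. The left-hand part, TTCAGCACC, was in 0 members and 0.433% of all genes as an exact match. Shortly after the capitals, the Gria2 stretch reads ggtgctaaa, which is close to the reverse complement of this left-hand part but not identical. Such near matches were not counted, in Gria2 or in any other gene. The AP-1 motif TGANTCA, bound by Jun and Fos family factors, was in Chrna1, Grid2ip and Grin3b, and in 8.97% of all genes. The cAMP response element TGACGTCA was in 0 members and 2.03% of all genes. A match is a description of the letters, and whether a factor binds there was not tested.

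Some genes that work with the receptors fell too. Of 33 tested auxiliary and assembly genes, 17 were lower at 16 HPI, beside 11.5% of all genes, and 2 higher, beside 10.7%, with a median of -0.23. At 24 HPI 8 were lower, beside 9.03% of all genes, and 2 higher, beside 825 of all 13771 genes. The AMPA receptor auxiliary genes Shisa6 and Shisa7 changed by -0.43 (adjusted p = 0.000141) and -0.44 (adjusted p = 5.11e-05) at 16 HPI. Cacng8, a transmembrane AMPA receptor regulatory protein gene, changed by -0.81 (adjusted p = 0.000592), and Gsg1l, another auxiliary subunit, by -0.41 (adjusted p = 0.000148). Lynx1, a membrane-tethered modulator of nicotinic receptors, changed by -0.58 (adjusted p = 0.000294), and Lhfpl4, needed for GABA-A receptor clusters, by -0.31 (adjusted p = 0.0117). The 2 that rose at 16 HPI were Cacng3, by 0.55 (adjusted p = 0.00416), and Cbln1, a secreted ligand of delta receptors, by 0.42 (adjusted p = 0.0478).

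Scaffold genes passed in both directions, and few transmitter genes passed against control. Of 28 scaffold genes, 6 were higher and 7 lower at 16 HPI, beside 10.7% of all genes higher and 11.5% lower, with a median of -0.06. Homer3, a scaffold of the postsynaptic density, rose by 0.68 (adjusted p = 0.00396), while Nlgn3, a synaptic adhesion gene, changed by -0.51 (adjusted p = 0.000163). Of 18 tested genes for transmitter synthesis, packaging and uptake, 0 were higher and 2 lower (11.1%) at 16 HPI, beside 11.5% of all genes lower. At 24 HPI 0 were higher and 3 lower (16.7%), beside 9.03% of all genes lower. The median log2 fold change of these 18 genes was 0.016 at 16 HPI and 0.014 at 24 HPI, with 10 and 9 of them above 0. Of 4 chloride transporters, which set whether GABA depolarizes, Slc12a2, the importer that keeps sensory neuron chloride high, changed by -0.29 (adjusted p = 0.000661) at 24 HPI, and none passed at 16 HPI.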

How the data were processed

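RNA of 18 libraries, 3 in each of 6 groups, was sequenced by the authors after rRNA depletion per the labels. The deposited values are raw counts per gene, which per the labels and the methods the authors made by trimming, aligning with STAR to mm10 and counting. The labels name HTSeq and the methods featureCounts, the 5 closing entries of each table carry htseq-count names, and strand use and reads shared between genes are not given in the sources used here. Those 5 entries, 25.2% to 33.2% of each total, were left out of library sizes. FDU and the DIV7 collection are named by the methods or labels.

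The members, gene lists and tests were chosen with earlier results of these data known. Gene names, exons and positions came from GENCODE vM21, which matched 47224 of 47643 identifiers. The 13771 genes that exceeded 1 CPM in 3 or more libraries entered the tests, with TMM factors in edgeR 4.0.16 (R 4.3.3, limma 3.58.1). One quasi-likelihood model of time point and replicate number was fitted to all 18 libraries, with two-sided tests and Benjamini-Hochberg adjustment over all genes. A gene passed, and is called changed, with an adjusted p under 0.05 at any size. Deviations from group means correlated across genes at a mean r of 0.62 (0.494 to 0.759) in the 45 same-number pairs and of -0.309 in the 90 other pairs between groups. Deviations in a group of 3 sum to 0, so the second value follows from the first and adds no separate support. On the first value the numbers were taken to pair the libraries, from the data and not from the labels. No 2 libraries held identical counts. CPM used TMM-scaled totals and RPKM divided CPM by the length of all exons of a gene. Intervals are 95% intervals of the fit, and detection limits cover counting error only.

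Every member that passed any comparison was named, with the 2 highest of each class in control, Gria2, Grin1, Glrb, Chrnb2 and Htr3a, except that some items are not reported here by name, although all tested members are in the counts. Values in every library are given for members that passed and changed by over 0.5 (log2) at some time. Other names were chosen after values were seen. On simulated counts for 16 HPI against control, run on 13771 genes, edgeR recovered 39 of 50 genes changed 1.5-fold and 13 of 50 changed 1.2-fold, and called 13 unchanged genes. DESeq2 1.42.0, other factors and filters, no replicate block, fits without single libraries or replicate sets, offsets for GC content and length, rRNA and mitochondrial genes left out, and a sensory neuron marker term were alternatives, the last chosen after seeing the data. Figures were drawn with matplotlib 3.10.9 in Python 3.11.15.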

Additional observations from a re-analysis of the deposited data

Results flagged for a closer look

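Receptor subunit genes whose change against control differed between 2 time points, by edgeR's test of that difference with Benjamini-Hochberg adjustment, are given here as log2 differences. From 8 to 16 HPI the AMPA subunits differed by -0.98 (Gria1), -0.21 (Gria2), -0.49 (Gria3) and -0.24 (Gria4), and the NMDA subunits by -0.42 (Grin2b) and -0.56 (Grin3a). The kainate and delta subunits differed by -0.26 (Grik4), -0.25 (Grid1) and 0.90 (Grik3), the last being the only rise. The GABA-A subunits differed by -0.30 (Gabra2) and -0.82 (Gabrb2), Chrna7 by -0.43 and Htr3a by -0.48. From 16 to 24 HPI Gabrb2 differed by 1.02, Gria3 by 0.42 and Chrnb2 by 0.17. The 16 HPI libraries enter every one of these differences, and 16 HPI replicate 1 held the largest share of residual rRNA, 24.1% of its counts. With rRNA and mitochondrial genes left out 19 of 41 members then tested passed at 16 HPI, beside 21.4% of all genes.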

How the results depend on the processing

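The replicate block, which pairs libraries by number, decides most calls: without it 0 members passed at 8 HPI, 1 at 16 HPI (0 over 2-fold), 0 at 24 HPI, 0 from 8 to 16 HPI, 0 from 16 to 24 HPI and 1 over the time course. The share of all genes that passed without it was 0.443%, 5.13% and 1.11% at 8, 16 and 24 HPI. It was 1.5% from 8 to 16 HPI and 0.806% from 16 to 24 HPI. With upper-quartile factors 0 members were over 2-fold at 16 HPI and the 24 HPI median was -0.19. With a minimum of 10 counts over all libraries these were 0 and -0.17. With no filter they were 0 and -0.15, and the 16 HPI median was -0.24. In that fit 1 member passed at 3 HPI, beside 1.11% of all genes, and 2 at 8 HPI, beside 4.09%. With over 1 CPM in all libraries 0 were over 2-fold at 16 HPI and the 3 HPI median was -0.054. Without replicate set 1, 1 member passed at 3 HPI, beside 0.552% of all genes, and 5 at 24 HPI, beside 7.24%. From 8 to 16 HPI 6 members passed, beside 6%, and from 16 to 24 HPI 0, beside 2.56%. In that fit 1 was over 2-fold at 8 HPI, and the 24 HPI median was -0.19. Without replicate set 2, 12 passed at 16 HPI (2 over 2-fold), beside 14.7% of all genes, and 5 at 24 HPI, beside 6.61%. In that fit 12 passed over the time course, and the 3 and 24 HPI medians were -0.048 and -0.12. Without replicate set 3, 0 passed at 8 HPI, beside 2.37% of all genes. From 8 to 16 HPI 7 passed, beside 8.44%, and from 16 to 24 HPI 1, beside 4.89%. In that fit 3 at 16 HPI and 1 at 24 HPI were over 2-fold. GC and length offsets gave 6 from 16 to 24 HPI, beside 11.2% of all genes. With the sensory neuron marker sum as a term, 0 members passed at 8, 16 and 24 HPI and from 8 to 16 HPI, 1 from 16 to 24 HPI and 2 over the time course, 0 were over 2-fold at 16 HPI, and the 16 and 24 HPI medians were -0.23 and -0.15. The share of all genes that passed with it was 0.937%, 0.00726% and 0% at 8, 16 and 24 HPI. It was 0.0799% from 8 to 16 HPI and 7.5% from 16 to 24 HPI. Under that term 12 named log2 changes turned positive, and none of the 12 passed (edgeR, adjusted p = 0.439 to 0.999). At 16 HPI these were Gria1 0.78, Chrnb2 0.014, Chrna7 0.054, Chrna6 0.11 and Htr3a 0.92. At 24 HPI they were Gria1 0.98, Chrna7 0.10, Chrna6 0.073 and Grik4 0.082, and from 8 to 16 HPI Gria1 0.20, Chrna7 0.0019 and Htr3a 0.40. The marker sum was itself lower at 16 and 24 HPI, so the term overlaps with time point and these signs cannot be read as rises. The cause was not tested.

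Leaving out each of the 18 libraries in turn gave 0 to 1 members at 3 HPI, 0 to 1 at 8 HPI, 14 to 20 at 16 HPI, 7 to 13 at 24 HPI, 9 to 16 from 8 to 16 HPI, 0 to 4 from 16 to 24 HPI and 18 to 22 over the time course. The share of all genes that passed also differed between these fits. Members over 2-fold numbered 0 to 2 at 16 HPI and 0 to 1 at 24 HPI. The medians ranged from -0.10 to -0.04 at 1 HPI, -0.04 to 0.0032 at 3 HPI, -0.12 to -0.04 at 8 HPI, -0.32 to -0.24 at 16 HPI and -0.23 to -0.16 at 24 HPI. Of the calls, 12 of 19 at 16 HPI and 4 of 13 at 24 HPI held in all 18 of these fits. The DESeq2 Wald test called 18 members at 16 HPI, beside 18.4% of all genes, and 11 at 24 HPI, beside 11.9%. With the longest transcript as the length, control class sums were 29.6 (AMPA), 80.7 (GABA-A), 13.7 (NMDA), 6.12 (delta), 25.8 (glycine), 35.8 (kainate) and 29.4 RPKM (neuronal nicotinic). Leaving out control libraries gave sums of 14.7 to 24.6 (5-HT3), 20.2 to 23.5 (AMPA), 60.7 to 65.5 (GABA-A), 6.77 to 6.96 (NMDA), 5.37 to 5.87 (delta), 16.5 to 17.2 (glycine), 27.2 to 30.01 (kainate), 1.67 to 1.91 (muscle nicotinic) and 20.2 to 23.7 RPKM (neuronal nicotinic). Outside the fits that leave out 1 library, 509 named values kept direction and side of the threshold, 174 kept direction but no longer passed and 12 reversed. Depth limits the scarce subunits, since 3 counts stand for up to 0.316 CPM.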
